A study of Mus musculus with 56 samples.

Results

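Ttc39c, Endod1, Emb, Prr5l, Sema6d, Hyal2, Gm4956 and Gm43698 are 8 little-studied genes of 55359 rows in a table of RNA counts from mouse CD8+ T cells. They were chosen by their measured counts, because they looked switched on in some sorted populations and off in others, so the levels below are a description and carry no test wherever a comparison between Naive, Sensitized and post-partum cells was used to pick them. The study asked how pregnancy changes T cells that recognise fetal antigen, in mice with and without an earlier sensitization to it. The cells, called TFGS, were OVA:Kb tetramer-binding CD8+ T cells sorted from pooled spleen and lymph nodes of individual C57BL/6 females, at 200 cells per library. Naive mice were neither grafted nor mated. Sensitized mice had rejected a skin graft from 2W-OVA.BALB/c donors, whose tissues all carry the OVA model antigen, and were taken at least 30 days later. N+P females conceived by 2W-OVA.BALB/c sires with no graft before, S+P females had the graft and then the same mating, and both were taken within 3 days after giving birth. Post-partum cells were sorted into gates named after phenotypic clusters: C1 (naive-like, PD1-) from N+P mice, C4 (sensitized-like, PD1-) from S+P mice, C5 (PD1+CD73+) from both and C7 (PD1+CD73-) from S+P mice. The 7 groups held 3 Naive, 3 N+P C1, 3 N+P C5, 4 Sensitized, 6 from the S+P C4, 6 from the S+P C5 and 5 from the S+P C7 gate, and the tetramer limits all of them to cells of 1 antigen specificity.

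The 56 libraries held 6636532 to 32625243 counts each, with a median of 17299849, and counts of the technical libraries of a replicate were summed. All 7 CD8 T cell marker genes were present in each group, with summed levels of 5396 to 9325 CPM (read counts scaled to a common library total) over the 30 samples. Cd4 and Foxp3 together reached at most 4.45 CPM in any sample. Outside the S+P C7 gate, summed erythroid markers reached 418 CPM (S+P C4) and myeloid and dendritic markers 419 CPM (Sensitized). B and plasma cell markers reached 418 CPM in N+P C1, 344 CPM in Sensitized and 266 CPM in N+P C5. NK cell markers reached 126 CPM in Sensitized and 328 CPM in S+P C7, and the gamma delta T cell gene Trdc 9.67 CPM in N+P C1. S+P C7 replicate 3, sorted as PD1+, held Pdcd1 at 0.0467 CPM and the highest summed levels of erythroid (19871 CPM), myeloid and dendritic (6276 CPM) and B and plasma cell markers (1895 CPM). It had 7879 detected genes, and S+P C4 replicates 2 and 3 had 8002 and 7436. A deposited library was identical in Naive replicate 1 and S+P C4 replicate 1 and was left out of both. Values are given below with and without these samples for some genes and gates, and their part in any difference was not tested.

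Of the 8 genes, 6 encode proteins of different kinds. Emb (embigin) is a transmembrane glycoprotein of the immunoglobulin superfamily that accompanies monocarboxylate transporters, the carriers of lactate and pyruvate. Sema6d is a membrane-bound semaphorin, a family first known from axon guidance, and binds plexin-A receptors. Hyal2 is a hyaluronidase anchored at the cell surface that cleaves hyaluronan, a polysaccharide of the extracellular matrix. Prr5l, also called Protor-2, binds the mTORC2 kinase complex through Rictor. Ttc39c belongs to a family of tetratricopeptide repeat proteins whose function in T cells is poorly described, and Endod1 carries an endonuclease domain. Gm4956 is annotated as a transcribed unprocessed pseudogene and Gm43698 as a long noncoding RNA. All 8 had enough counts to enter the fit, which was made over 19659 genes. The comparisons that chose them called few genes in all, at an edgeR adjusted p below 0.1 and an absolute log2 difference above 0.9. Of all genes tested, 0.153% passed between Sensitized and Naive cells, 0.0407% between N+P C5 and Naive, 0.0712% between S+P C5 and Sensitized, and 0.0305% between S+P C7 and Sensitized. These shares are given as background, and nothing about the 8 is read from them.

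Emb had the highest level of the 8 genes, also per length (38.7 CPM per kb of exon over the 30 samples, against 33.7 for Gm4956 and 7.27 or less for the others). It was read in every sample. Naive samples held 492, 919 and 631 CPM, N+P C1 samples 631, 637 and 699 CPM, and Sensitized samples 637, 850, 726 and 479 CPM. N+P C5 samples held 661, 349 and 334 CPM. These groups overlapped, with a mean of 681 ± 218 (SD, n = 3) in Naive cells against 673 ± 156 (SD, n = 4) in Sensitized cells. The S+P gates had lower medians. S+P C4 ranged from 133 to 993 CPM with a median of 308, and S+P C5 from 198 to 496 CPM with a median of 214. S+P C7 samples held 91.6, 233, 154, 166 and 86.5 CPM, all below every Sensitized sample. The mean was 4.6-fold lower in S+P C7 than in Sensitized cells (log2 difference -2.20, SE 0.43) and 2.58-fold lower in S+P C5 (log2 difference -1.37, SE 0.40), where replicate 3 at 496 CPM overlapped the lowest Sensitized sample. Both comparisons share the Sensitized samples. Without replicate 3 the S+P C7 mean was 125 ± 41.3 CPM (SD, n = 4) in place of 146 ± 60.3 (SD, n = 5). Without replicates 2 and 3 the S+P C4 mean was 237 ± 90.2 CPM (SD, n = 4) in place of 378 ± 312 (SD, n = 6), below the S+P C5 mean of 260 ± 117 (SD, n = 6). By group mean over all samples the order ran from Naive through Sensitized and the N+P gates (C1, then C5) to the S+P gates (C4, C5, then C7), where C4 and C5 change places without those replicates, and every group overlapped the next in that order.

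Sema6d was near the detection limit in most samples and was read in the C5 gate. All 4 Sensitized, all 3 N+P C1 and all 6 S+P C4 samples had 0 counts. Naive samples had 0, 1 and 8 counts. All 6 S+P C5 samples had 51 to 580 counts, which is 2.03 to 12.3 CPM with a median of 3.66. S+P C5 and S+P C4 therefore did not overlap, and the mean of 5.95 ± 4.69 CPM (SD, n = 6) in S+P C5 was at least 63.8-fold above the level that 3 counts per sample would give in Sensitized cells. N+P C5 samples held 3.25, 2.37 and 0.0310 CPM. S+P C7 samples held 0, 0, 0.325, 1.09 and 6.36 CPM, which overlapped both S+P C5 and 0. Such floors cover counting error only, and because amplified reads without molecular identifiers are not independent molecules, they are optimistic. In bulk libraries, fewer cells with a transcript and less RNA per cell cannot be told apart.

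Sema6d and Prr5l were read in all C5 samples, Sema6d at 1 count in N+P C5 replicate 3, so bases before their start sites are shown. RefSeq windows were used for 4 of the 8 genes (Prr5l, Sema6d, Hyal2 and Emb). They covered 7 start sites, with 250 bases before each, and were placed on GRCm39 by exact match. Windows of the remaining genes of the 8 were not examined. Bases inside exons of the gene itself are left out. Matches to 3 motifs of factors used by T cells were searched on both strands: TGANTCA (AP-1), TGGAAA (NFAT) and TGTGGT (RUNX), which do not overlap each other below. Capitals mark a match.
Sema6d, downstream start site, + strand, chr2:124495251-124495500, intronic: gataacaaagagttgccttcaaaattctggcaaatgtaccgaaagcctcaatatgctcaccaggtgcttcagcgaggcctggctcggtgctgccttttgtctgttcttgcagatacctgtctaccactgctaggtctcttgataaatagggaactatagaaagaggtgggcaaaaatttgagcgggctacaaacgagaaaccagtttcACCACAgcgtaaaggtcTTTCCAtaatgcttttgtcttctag
Prr5l, upstream start site, - strand, chr2:101713410-101713622: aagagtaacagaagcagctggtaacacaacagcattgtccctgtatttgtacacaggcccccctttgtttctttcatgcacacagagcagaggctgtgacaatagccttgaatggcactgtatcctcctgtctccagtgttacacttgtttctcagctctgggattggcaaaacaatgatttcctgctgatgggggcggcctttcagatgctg
Prr5l, middle start site, - strand, chr2:101669326-101669575, intronic: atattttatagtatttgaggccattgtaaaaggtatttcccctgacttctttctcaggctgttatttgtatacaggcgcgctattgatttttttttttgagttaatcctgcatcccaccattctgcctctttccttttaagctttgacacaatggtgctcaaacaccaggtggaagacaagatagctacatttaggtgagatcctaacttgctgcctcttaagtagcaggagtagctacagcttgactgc
The Sema6d window held a RUNX match on the minus strand at -42 and an NFAT match at -25 from the start site. The Prr5l stretches printed hold none, and an NFAT match at -31 of the upstream site lies in the exonic bases that are left out. Another Prr5l start site, farther downstream (window chr2:101628053-101628302, not printed), held a RUNX match on the minus strand at -65, and the Emb window held an NFAT match at -124. Of 32536 windows of the same length, 18.6% held the NFAT letters, 14.0% the RUNX letters and 6.73% the AP-1 letters, so these matches are common and say nothing of binding.

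Prr5l was off in Naive cells and read in all C5 and C7 samples. All 3 Naive samples had 0 counts. N+P C1 samples held 0.482, 4.56 and 0.0574 CPM and N+P C5 samples 20, 23.6 and 8.29 CPM. The lowest N+P C5 sample was above the highest N+P C1 sample, and the N+P C5 mean of 17.3 ± 7.99 CPM (SD, n = 3) was at least 154-fold above the level that 3 counts would give in Naive cells. Sensitized samples were divided, with 0 counts in replicates 1 and 3 and 38.7 and 7.94 CPM in replicates 2 and 4. S+P C4 ranged from 0 to 47.8 CPM with a median of 13.3, and S+P C5 from 30.7 to 65.3 CPM with a median of 37.9. S+P C7 samples held 32.1, 148, 44.7, 64.9 and 51.3 CPM. Every S+P C5 sample was above every N+P C5 sample, with means of 42.3 ± 13.4 (SD, n = 6) and 17.3 CPM. The highest value, 148 CPM, is that of S+P C7 replicate 3, and without it the S+P C7 mean was 48.3 ± 13.7 CPM (SD, n = 4) in place of 68.2 ± 46.1 (SD, n = 5).

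Hyal2 was scattered. It had 0 counts in all 3 Naive samples and 6.45, 7.59 and 5.91 CPM in N+P C1, the tightest of its groups. N+P C5 samples held 9.34, 10.4 and 1.83 CPM, so both N+P gates lay above Naive and overlapped each other. Sensitized samples held 0.701, 1.85, 0 and 8.33 CPM. Its highest values were 25.7 CPM in S+P C4, 18.7 CPM in S+P C5 and 5.6 CPM in S+P C7, and these gates had 4 of 6, 2 of 6 and 2 of 5 samples at 3 counts or fewer. Among the 6 groups other than Naive, only N+P C1 and S+P C7 did not overlap.

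Ttc39c had 0 counts in every Naive sample and was read in all samples of the other groups but 1. Sensitized samples held 25.2, 51.1, 61.6 and 38.6 CPM, and their mean of 44.1 ± 15.8 (SD, n = 4) was at least 394-fold above the level that 3 counts would give in Naive cells. N+P C1 samples held 5.72, 0.383 and 13.5 CPM and N+P C5 samples 49.8, 3.18 and 15.9 CPM, spread over more than a power of 10 and overlapping between gates. S+P C4 ranged from 3.54 to 166 CPM with a median of 40.7, S+P C5 from 20.6 to 62.2 with a median of 51.4, and S+P C7 from 0 to 75.1 with a median of 49.1. The S+P groups overlapped Sensitized, and the log2 difference of S+P C5 from Sensitized was 0.03 (SE 1.05). The lowest and highest S+P values came from the samples with few detected genes, with 3.54 and 166 CPM in S+P C4 replicates 2 and 3 and 0 in S+P C7 replicate 3. Without them S+P C4 held 42.0 ± 6.5 CPM (SD, n = 4) and S+P C7 55.2 ± 23.3 (SD, n = 4).

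Endod1 had 0, 6 and 1 counts in the Naive samples. N+P C1 samples held 6.54, 3.52 and 7.26 CPM and N+P C5 samples 83.1, 66.6 and 41.2 CPM, so neither N+P gate overlapped Naive or the other gate. Sensitized samples held 24.5, 5.95, 51.4 and 28.2 CPM. S+P C4 replicates 2 and 3 held 0.469 and 0 CPM while the other 4 held 41.4 to 58.7 CPM. S+P C5 ranged from 27.1 to 50.8 CPM, and S+P C7 from 32.7 to 88.5 CPM with replicate 3 at the top. The Naive level rests on which libraries are counted. The library deposited under both Naive replicate 1 and S+P C4 replicate 1 held 236 counts of Endod1, and with all columns kept as deposited the log2 difference of Sensitized from Naive was 3.77 in place of 8.34 (SE 1.72). The same library held 0 counts of Ttc39c, Prr5l, Sema6d, Hyal2 and Gm4956, 468 of Gm43698 and 10695 of Emb.

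Gm4956 was low in Naive and N+P C1 cells, at 0 or 1 count in Sensitized cells and high in C5. Naive samples held 3.91, 2.15 and 3.06 CPM, N+P C1 samples 5.93, 8.60 and 7.78 CPM, and N+P C5 samples 32, 51.2 and 86.0 CPM. These groups did not overlap, and the N+P C5 mean of 56.4 ± 27.4 CPM (SD, n = 3) was 18.5-fold that in Naive cells (log2 difference 4.21, SE 1.82). Sensitized samples had 1, 0, 0 and 1 counts, at least 32.6-fold below Naive. S+P C4 samples held 0 to 13.3 CPM with 3 of 6 at 3 counts or fewer, while S+P C5 ranged from 23.9 to 102 CPM with a median of 49.1. Those 3 S+P C4 samples were replicates 1, 2 and 3, each with only 1 library. The S+P C5 mean of 53.0 ± 27.5 CPM (SD, n = 6) was at least 569-fold above the level that 3 counts would give in Sensitized cells. S+P C7 samples held 15.9, 0, 13.5, 60.8 and 39.6 CPM, the 0 being replicate 3. The means in C5 of N+P and S+P mice, 56.4 and 53.0 CPM, differed by less than the spread between samples.

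Gm43698 ran opposite to Gm4956 in the C5 gates, but both were lower in Sensitized than in Naive cells. Naive samples held 38.4, 67.9 and 44.0 CPM and N+P C1 samples 44.3, 55.8 and 34.5 CPM, which overlapped. N+P C5 samples held 6.30, 16.1 and 7.51 CPM and Sensitized samples 22.5, 3.20, 14.7 and 12 CPM, all below every Naive sample. All 6 S+P C5 samples had 0 counts, and S+P C7 samples had 0, 0, 0, 17 and 19 counts. The S+P C5 level was thus at least 136-fold below the Sensitized mean of 13.1 ± 7.96 CPM (SD, n = 4). S+P C4 samples held 6.06, 0, 67.1, 0, 2.41 and 3.16 CPM, and without replicates 2 and 3 the mean was 2.91 ± 2.50 CPM (SD, n = 4) in place of 13.1 ± 26.5 (SD, n = 6).

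**Figure D1:**
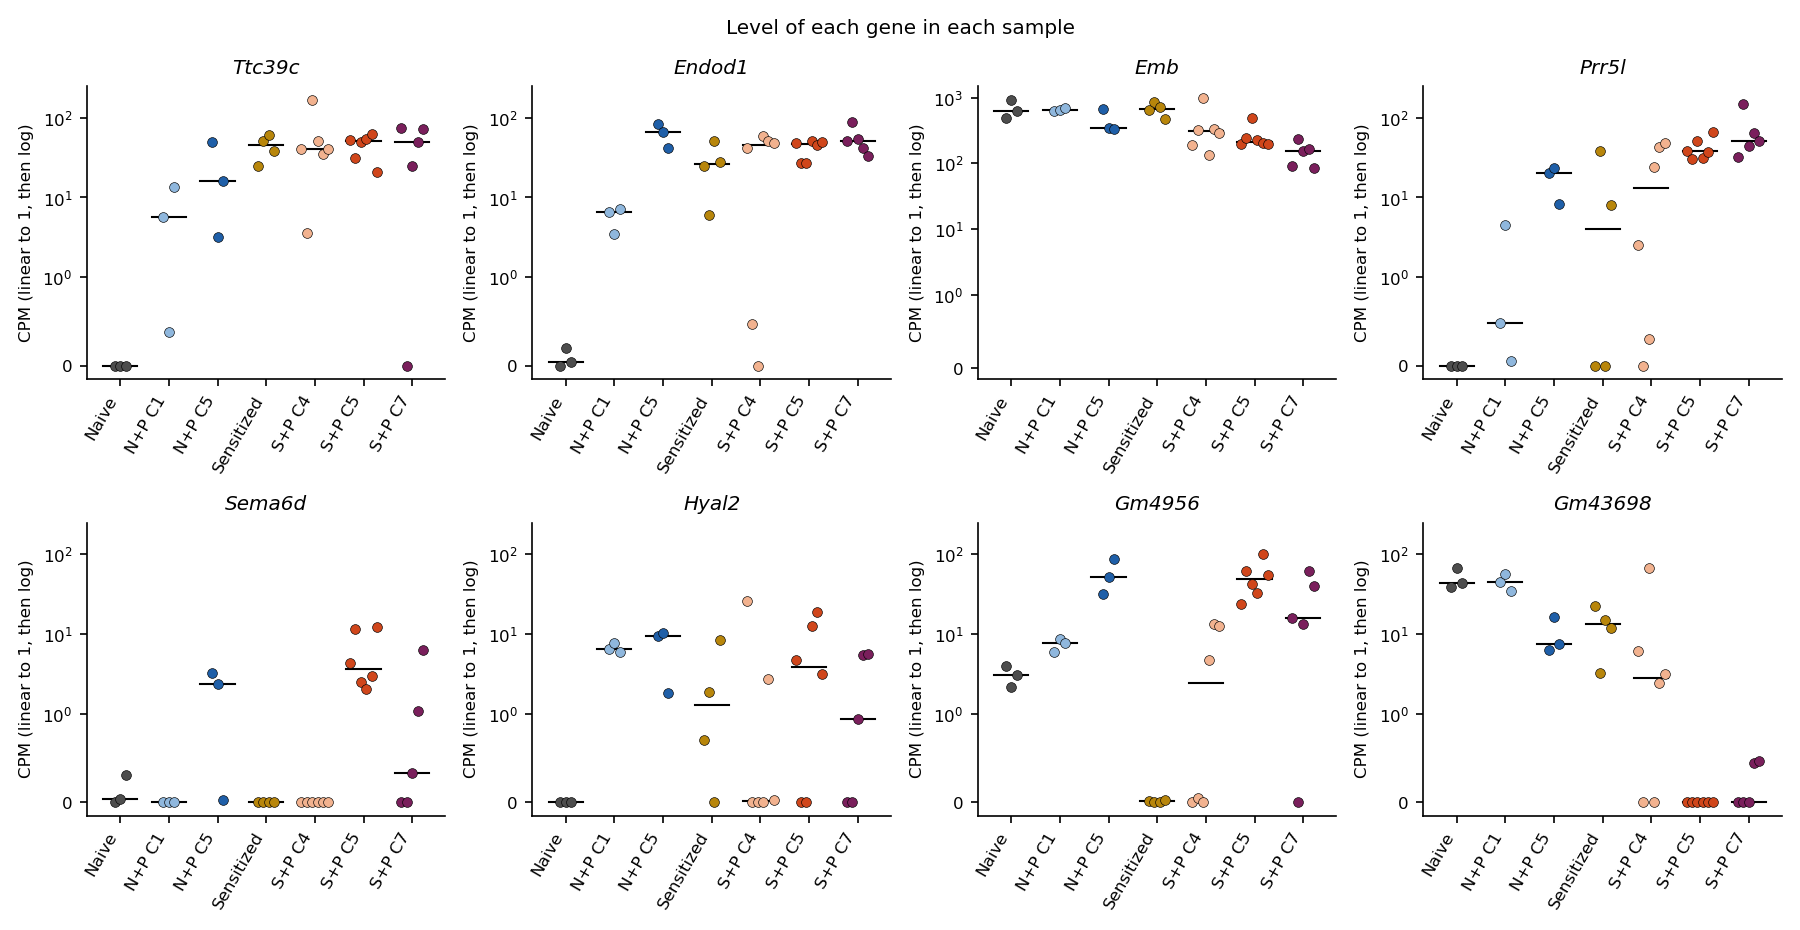
Each panel plots 1 gene, with a point for each sample of the 7 groups on the x axis and its level in CPM on the y axis (linear up to 1, log above), and a bar at the group median. Ttc39c, Prr5l and Hyal2 lie at 0 in all 3 Naive samples, Gm4956 lies at or near 0 in all 4 Sensitized samples and Gm43698 lies at 0 in all 6 S+P C5 samples, while Emb is at 86.5 CPM or above in every sample.

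The switches can also be read between technical libraries, since 23 combinations of replicate and gate had 2 libraries of 200 cells each. Emb exceeded 3 counts in both libraries of all 23 pairs. Ttc39c did so in 17 pairs, Endod1 in 18, Prr5l in 16, Gm4956 in 14 and Gm43698 in 13. Sema6d exceeded 3 counts in both libraries of only 3 pairs, in 1 library of 7 pairs and in neither of 13, and Hyal2 in both of 9, in 1 of 8 and in neither of 6. Split pairs were not confined to low counts. Ttc39c had 1022 counts in 1 library of Sensitized replicate 2 and 0 in the other, and Gm4956 had 0 counts in 1 library of N+P C1 replicate 3 and 271 in the other. One of the 23 pairs, S+P C7 replicate 1, holds a library nearly identical to that of replicate 2, so its source is in doubt. Without it, 22 pairs remained, of which Gm4956 exceeded 3 counts in both libraries of 14, in 1 of 4 and in neither of 4, and Sema6d in both of 3, in 1 of 7 and in neither of 12. An off state in a single library of 200 cells therefore did not always hold in its partner.

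**Figure D2:**
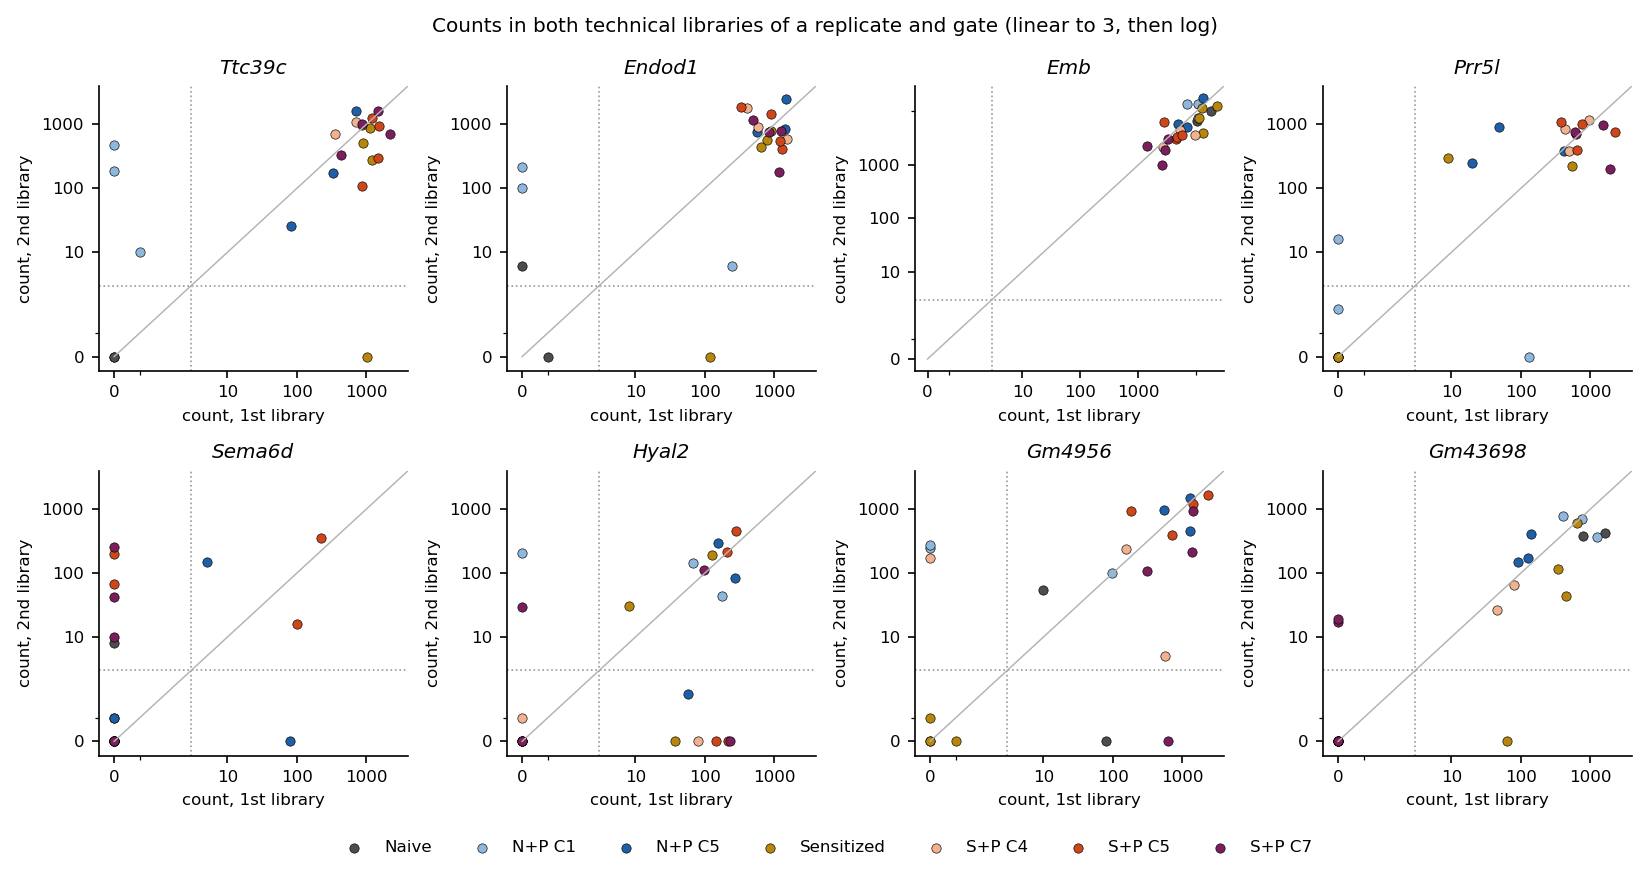
Each point is a replicate and gate with 2 technical libraries, with the count of the gene in the first on the x axis and in the second on the y axis (linear up to 3 counts, log above), coloured by group, with dotted lines at 3 counts and a grey line of equality. All 23 pairs of Emb lie above both dotted lines, while 7 pairs of Sema6d and 8 of Hyal2 lie above only 1 of them.

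Gates of the same pregnancy group were compared next. The labels number the replicates alike in each gate but do not say whether a number marks 1 mouse, so the gates were compared as groups. These samples also stood in the comparisons by which the genes were chosen, so the tests say nothing independent about them. How many of all genes tested lay apart between gates was not counted, so lack of overlap only describes the 8. In N+P mice the C5 gate lay above the C1 gate without overlap for Endod1, Gm4956 and Prr5l, and below it for Gm43698. Sema6d had 0 counts in all N+P C1 samples and 155, 81 and 1 counts in N+P C5, the last of these within the limit of 3 counts. In the edgeR quasi-likelihood fit, adjusted by Benjamini-Hochberg over 19659 genes, 0.00509% of genes passed the threshold (adjusted p below 0.1 and absolute log2 difference above 0.9) and none of the 8 was among them. Endod1 had a log2 difference of 3.46 (SE 1.36, edgeR adjusted p = 0.917). Other settings called some of the 8. DESeq2, which called 3.5% of the same genes, called Endod1 (DESeq2 adjusted p = 0.0710) and Sema6d (DESeq2 adjusted p = 0.0362). A fit of only these gates, which called 0.386% of genes, called Endod1 (edgeR adjusted p = 0.0514) and Gm4956 (edgeR adjusted p = 0.0848), and a fit without the 3 samples of few detected genes, which called 0.0767%, called Endod1 (edgeR adjusted p = 0.0242).

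In S+P mice the C5 gate lay above the C4 gate without overlap for Gm4956 and Sema6d. Neither passed the threshold by edgeR, with a log2 difference of 3.38 (SE 1.24, edgeR adjusted p = 0.297) for Gm4956 and an edgeR adjusted p of 0.258 for Sema6d, whose S+P C4 samples were all at 0. DESeq2 called both, with a DESeq2 adjusted p of 0.0663 for Gm4956 and 3.05e-06 for Sema6d, beside 4.79% of all genes. Gm43698 passed by edgeR (edgeR adjusted p = 0.0601), beside 0.0305% of all genes, with 0 counts in all S+P C5 samples and in S+P C4 replicates 2 and 4. Its edgeR adjusted p was 0.123 without S+P C4 replicate 3. Leaving out 1 other sample at a time gave edgeR adjusted p = 0.0134 to 0.180, above the threshold without S+P C5 replicate 2, 4, 5 or 6. Without all 3 samples of few detected genes, a fit that called 39 genes, the edgeR adjusted p of Gm43698 was 0.00852. DESeq2 also called Gm43698 (DESeq2 adjusted p = 2.86e-10). All of these tests of Gm43698 reuse samples that stood in the comparisons that chose it, so they give no independent support. Between C7 and C5, 0% of genes passed by edgeR, against 2503 at an unadjusted p under 0.05. DESeq2 called 2.76% of the same genes, and 603 over all rows of the count table. Emb had a log2 difference of -0.83 between C7 and C5 (SE 0.39, edgeR adjusted p = 0.347), and the gates overlapped.

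**Figure D3:**
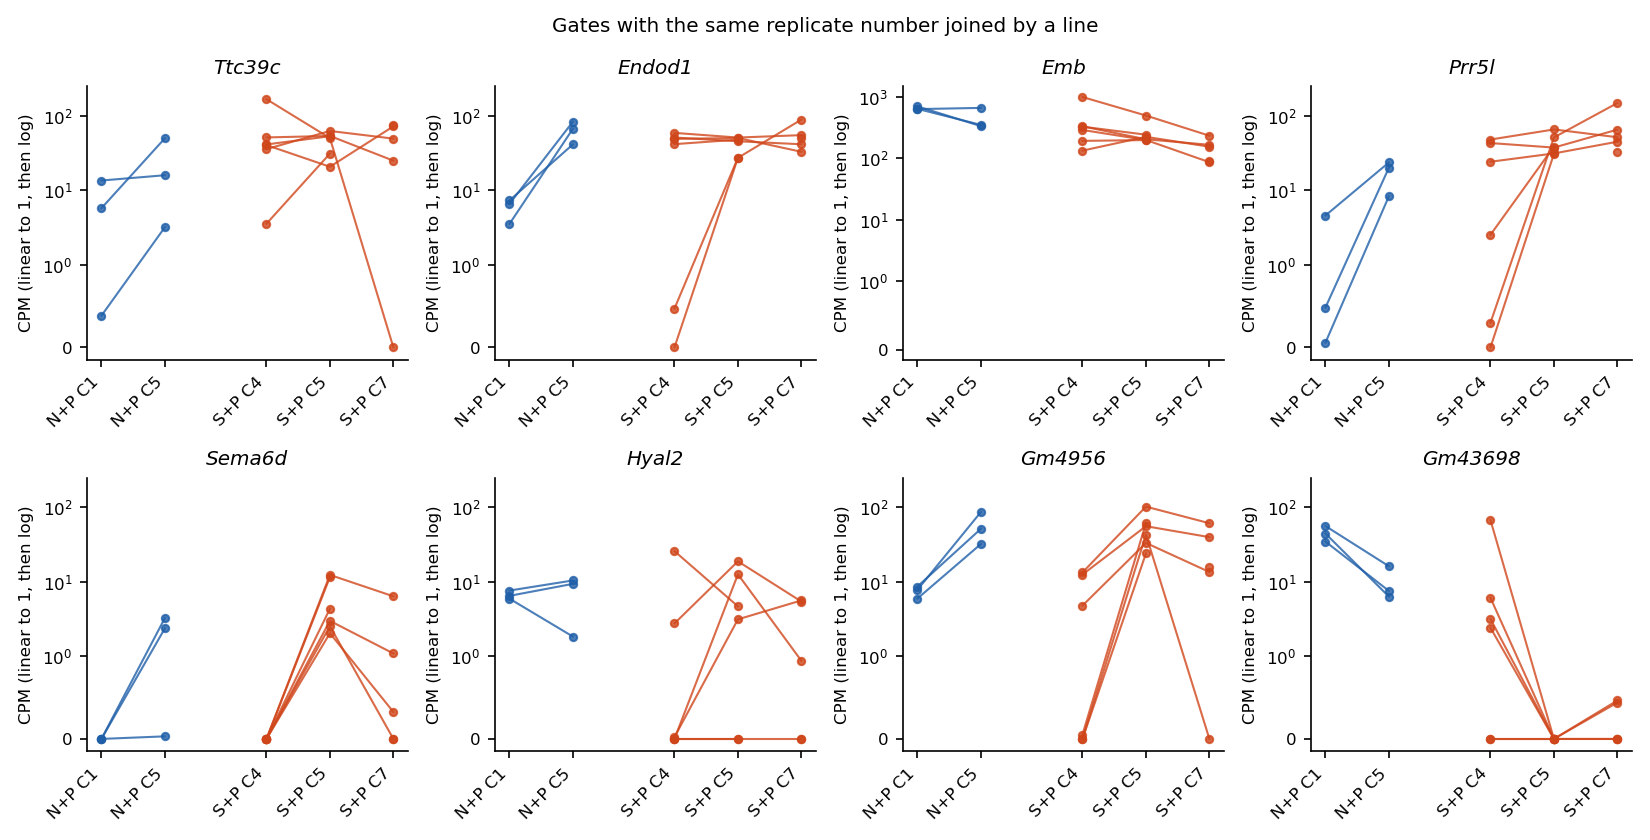
Lines join gates with the same replicate number (x axis), blue for N+P and red for S+P, with the level of each gene in CPM on the y axis (linear up to 1, log above); whether a number marks 1 mouse is not stated. All S+P C5 points of Sema6d and Gm4956 lie above all S+P C4 points, while Gm43698 lies at 0 in all S+P C5 samples and at 6.30 to 16.1 CPM in N+P C5.

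Other genes of the same families were followed in all 7 comparisons. Of 80 such genes in 6 lists (TTC39 proteins, DNA nucleases, embigin relatives and monocarboxylate transport, mTORC2, semaphorins and plexins, hyaluronan), 67 had enough counts to be tested, and 0 passed by edgeR in any comparison. Without the 3 samples of few detected genes, Cd44, Nrp1, Prkca, Ttc39b and Sema4a passed in at least 1 of them. At an unadjusted p under 0.05, 5 were higher and 3 lower in Sensitized than in Naive cells (11.9% of the 67, against 7.85% of all genes tested), and 4 higher and 2 lower in N+P C5 than in Naive (8.96% against 5.34%). From Sensitized cells, 7 were higher and 8 lower in S+P C5 (22.4% against 13%) and 9 higher and 1 lower in S+P C7 (14.9% against 10.2%). Between gates these counts were 4 and 3 for C5 against C1 in N+P mice (10.4% against 4.34%), 2 and 8 for C5 against C4 (14.9% against 13.3%), and 15 and 1 for C7 against C5 (23.9% against 12.7%). S+P C7 replicate 3, with high erythroid and myeloid markers, entered both C7 comparisons, and its part in these counts was not tested. DESeq2 called 2 to 7 of the 67 in each comparison, which is 2.99% to 10.4%, where it called 2.76% to 5.22% of all genes tested. These shares describe the lists and were not tested against each other.

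Of each list, the most abundant genes were followed by level. Bsg (basigin), the close relative of embigin, had a mean of 156 ± 27.6 CPM (SD, n = 4) among Sensitized samples and of 146 ± 80.2 CPM (SD, n = 5) among the S+P C7 samples, and Ldha, the lactate dehydrogenase subunit, 507 ± 53.0 and 407 ± 184 CPM. In S+P C7 the samples ranged from 3.55 to 192 CPM for Bsg and from 92.0 to 531 CPM for Ldha, so low samples weigh on these means. Ttc39b, the most abundant relative of Ttc39c, had means of 49.6 ± 33.5 CPM (SD, n = 3) in Naive cells against 184 ± 23.8 (SD, n = 4) in Sensitized cells, and Ttc39b reads were present in all 3 Naive samples. Of the mTORC2 list, Prkcq, a kinase of T cell receptor signalling, had 434 ± 104 CPM (SD, n = 3) in Naive and 334 ± 64.6 (SD, n = 6) in S+P C5, and Sgk1, a kinase downstream of the complex, 73.6 ± 35.8 and 97.9 ± 81.2 CPM. Samhd1, a dNTP hydrolase listed with the nucleases, ranged in group mean from 214 CPM in N+P C1 to 362 CPM in Sensitized. Sema4a was the most abundant semaphorin, with 240 ± 46.7 CPM (SD, n = 4) among Sensitized samples against 113 ± 38.1 (SD, n = 6) in S+P C5 cells, where Sema6d was read (log2 difference -1.09, SE 0.39, edgeR adjusted p = 0.276). Sema4d had 111 ± 22.1 and 75.9 ± 15 CPM in the same groups. Cd44, the main hyaluronan receptor of T cells and part of the phenotype behind the gates, had 50.8 ± 22.8 CPM (SD, n = 3) in Naive and 268 ± 75.5 (SD, n = 3) in N+P C5 cells (log2 difference 2.40, SE 0.52, edgeR adjusted p = 0.124). Hmmr, a hyaluronan-binding protein of dividing cells, ranged in group mean from 0.313 CPM in N+P C1 to 39.6 CPM in S+P C7. Dnase1l3, a secreted DNase of myeloid cells, reached 2431 CPM in 1 S+P C7 sample and at most 98.0 CPM in any other group, and Ttc39a stayed at or under 2.42 CPM.

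Several of these genes share bases with other genes. The libraries do not keep the strand, so reads from a gene and its antisense partner on shared bases cannot be told apart. Coordinates are on GRCm39 with GENCODE M39. Gm43698 (ENSMUSG00000107266, chr5:67517660-67523998, + strand) shares 861 exonic bases, 35.2% of its 2449, with an exon of Bend4 on the opposite strand, and Slc30a9 ends 1855 bases before it. Bend4 was read at 10.7 to 67.1 CPM in the 6 S+P C5 samples that had 0 counts of Gm43698. Bend4 had means of 63.8 ± 23.5 CPM (SD, n = 3) in Naive cells against 31.2 ± 12.7 (SD, n = 4) in Sensitized cells, the same order as Gm43698. The order differed elsewhere. Bend4 had a mean of 41.4 ± 22.4 CPM (SD, n = 6) in S+P C5, above Sensitized, where Gm43698 was lower. In N+P C1 its mean was 76.6 ± 21.7 CPM (SD, n = 3), above Naive, where the Gm43698 mean was lower. All 672 exonic bases of Gm4956 (ENSMUSG00000025936, chr1:21355832-21368351, - strand) lie in exons of Gm71569, a lncRNA on the same strand without a row in the count table, so the counts of Gm4956 cannot be told apart from reads of that transcript.

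**Figure D4:**
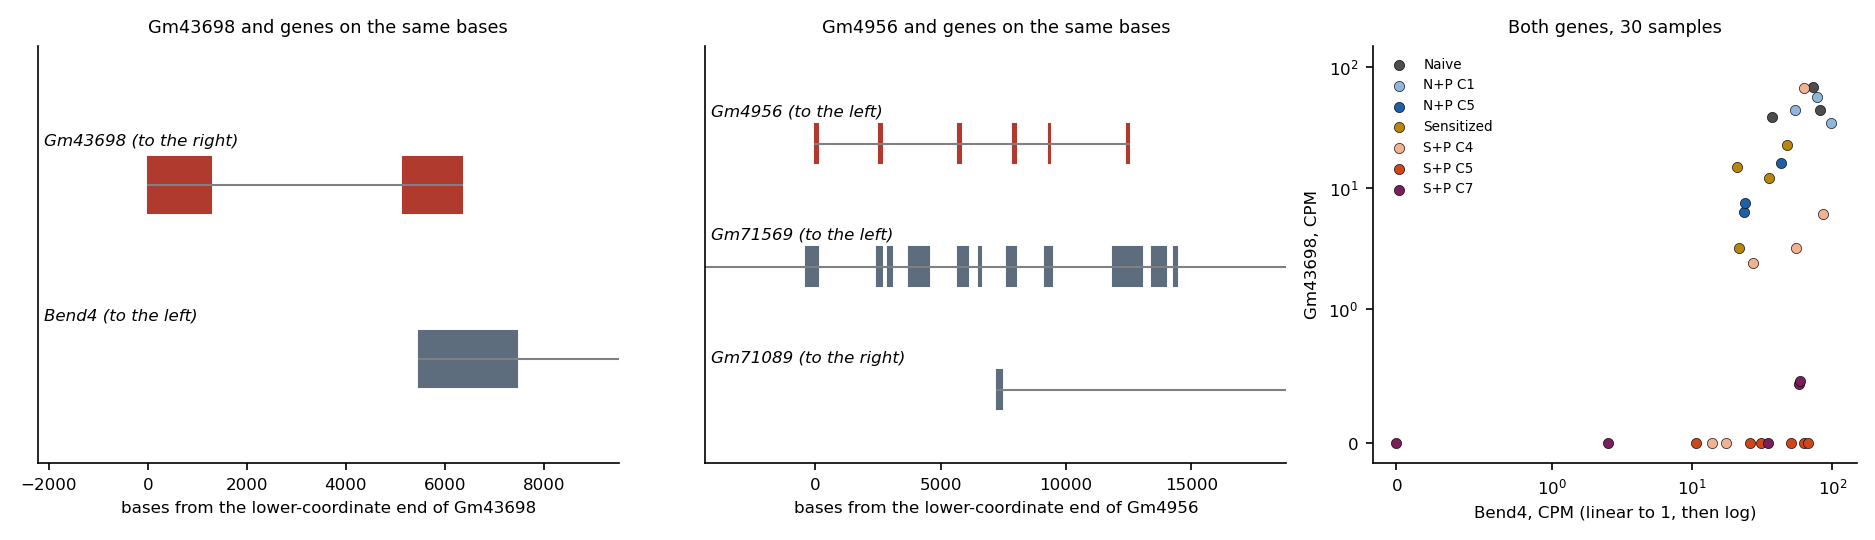
The left and middle panels map Gm43698 and Gm4956 (red exons) with the genes on the same bases (grey exons), by distance in bases and with the direction of transcription in brackets, and the right panel plots Gm43698 against Bend4 in CPM for 30 samples (linear up to 1, log above). An exon of Gm43698 overlaps Bend4 by 861 bases, and the 6 S+P C5 samples lie at 0 of Gm43698 while Bend4 is between 10.7 and 67.1 CPM.

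The protein-coding genes had smaller overlaps. Emb (ENSMUSG00000021728, chr13:117345072-117414817, + strand) shares 686 exonic bases with the antisense lncRNA Gm17509, which reached at most 4.53 CPM, and 599 with Gm61516, also without a row. Hyal2 (ENSMUSG00000010047, chr9:107445086-107450171, + strand) shares 539 with Gm9917, at most 18.7 CPM and highest in S+P C7, against a highest Hyal2 level of 25.7 CPM. Tusc2 ends 1176 bases before Hyal2. Prr5l (ENSMUSG00000032841, chr2:101543450-101713409, - strand) shares 115 with Gm13905, which had 0 counts, and 111 with Gm75689, and lies between Traf6 and Commd9. Sema6d (ENSMUSG00000027200, chr2:123931715-124509928, + strand) shares 427 with Gm75765, and Endod1 (ENSMUSG00000037419, chr9:14265286-14292803, - strand) 174 with Gm68724, and Gm75689, Gm75765 and Gm68724 have no counts here. Ttc39c (ENSMUSG00000024424, chr18:12732953-12872466, + strand) contains 6 smaller genes in its introns with no shared exonic base, and Cabyr, at most 3.4 CPM, starts 913 bases after it.

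The genes with the most similar course were taken by Pearson correlation of log2 CPM over the 30 samples, which share groups and may share mice, so the values describe likeness only. Ttc39c was closest to Klrc1 (r = 0.89), an inhibitory lectin-like receptor, Bhlhe40 (0.88) and Anxa2 (0.83). Endod1 was closest to Plscr1 (r = 0.92), Gm37004 (0.91) and Naip2 (0.88). Emb was closest to the ribosomal protein gene Rps19 (r = 0.83), Rps18-ps5 (0.81) and Gm11263 (0.81). Gm4956 was closest to Setbp1 (r = 0.85), Cd83 (0.84) and Tnfsf4 (0.82), the gene of OX40 ligand. Gm43698 was closest to Ccr7 (r = 0.84), the lymph node homing receptor of naive T cells, Plaur (0.83) and Igfbp4 (0.83). Prr5l was closest to Alcam, Ikzf3 and Fyn (r = 0.80 each), Sema6d to Mmp10 (0.82), Gm50467 (0.81) and Spock2 (0.80), and Hyal2 to Gm15720 (0.79), Wdr25 (0.73) and Gm31332 (0.72). Among the 8 themselves, Emb and Gm43698 were the most alike (r = 0.75), followed by Endod1 and Prr5l (0.72) and by Gm4956 and Sema6d (0.66).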

How the data were processed

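SmartSeq2 RNA-seq libraries of 200 sorted cells were sequenced in 1 run. Per the labels, the authors trimmed reads with cutadapt 3.4, aligned them with STAR 2.6.1b to GRCm39 and deposited raw counts per gene from featureCounts 2.0.1. Non-unique reads were removed. All 56 columns were matched to samples by name, 4 of them with another technical letter than the label, each the only library of its replicate and gate. The identical library was left out, and 2 nearly identical S+P C7 libraries (r = 0.9986) were averaged, joining replicates 1 and 2, giving 30 samples. CPM used TMM-scaled totals. Tests were edgeR 4.0.16 quasi-likelihood fits on all 7 groups after filterByExpr (minimum count 10), called at an adjusted p below 0.1 and absolute log2 difference above 0.9, and were tested on simulated data. Each SE is the absolute log2 difference divided by the square root of the edgeR quasi-likelihood F statistic. DESeq2 1.42.0 was an alternative. Per the study, cells came from individual mice, but the sources used here do not say whether a replicate number marks the same mouse in each gate, so gates were compared without a block. The cells came from 2 experiments, per the study, which the labels do not assign to samples. The p-values measure the spread between these samples. The genes and lists were chosen with earlier results of these data known. Named genes were the 8, for each the 3 genes of highest correlation, the 2 most abundant genes of each list, any list gene called, and overlapping or nearest genes. Nrp1 was named after its values were seen.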

Additional observations from a re-analysis of the deposited data

Results flagged for a closer look

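In groups of 4 to 10 samples, 29 combinations of gene and group were checked for a sample that stands far from the others by Dixon's criterion, which chance meets in about 1 in 20. Of those found, 3 were in S+P C4 replicate 3, a sample with 7436 detected genes: Ttc39c at 166 CPM, Emb at 993 CPM and Gm43698 at 67.1 CPM. Emb stood apart in S+P C5 replicate 3 at 496 CPM, Prr5l in S+P C7 replicate 3 at 148 CPM, Sema6d in S+P C7 replicate 6 at 6.36 CPM and Hyal2 in S+P C4 replicate 1 at 25.7 CPM. The library left out because it was deposited under both Naive replicate 1 and S+P C4 replicate 1 held 236 counts of Endod1, above every Naive sample. The causes were not tested.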

How the results depend on the processing

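Counts of called genes moved with the setting. In the order Sensitized vs Naive, N+P C5 vs Naive, S+P C5 vs Sensitized, S+P C7 vs Sensitized, N+P C5 vs C1, S+P C5 vs C4 and S+P C7 vs C5, the main counts were 30, 8, 14, 6, 1, 6 and 0. DESeq2, run on all rows of the count table without filterByExpr, called 1066, 1013, 1015, 770, 695, 976 and 603. Without a filter on low counts they were 14, 14, 7, 3, 0, 2 and 5. Without the 3 samples under 9000 detected genes they were 153, 121, 199, 68, 15, 39 and, unmoved, 0. Fits of only the groups compared gave 98, 57, 142, 1, 51 and 2 in the first 6. With all 56 columns kept, N+P C5 vs Naive gave 5. Leaving out 1 sample at a time gave 9 to 25, 2 to 8, 4 to 16, 1 to 7, 0 to 1, 2 to 12 and 0 to 1. Replicates of equal number were not stated to share a mouse. Their deviations correlated at 0.017 to 0.066 (N+P gates), 0.079 to 0.146 (C5 and C4) and 0.081 to 0.163 (C7 and C5). The means were 0.047, 0.109 and 0.120, against -0.024, -0.017 and -0.014 for replicates of unequal number. Unequal numbers ranged from -0.054 to -0.006, from -0.153 to 0.141 and from -0.139 to 0.102, with not every sample closest to its own number. In the fit with that number as a replicate block, N+P C5 vs C1 gave 29, S+P C5 vs C4 0 and S+P C7 vs C5 0. Gm43698 did not enter the blocked fits of the S+P gates. Without the 3 samples under 9000 detected genes, Cd44 and Nrp1 passed between Sensitized and Naive cells, between N+P C5 and Naive cells and between the N+P gates, and Endod1 passed between the N+P gates. Nrp1 also passed in S+P C5 and C7 vs Sensitized, Prkca in N+P C5 vs Naive, S+P C5 vs Sensitized and S+P C5 vs C4, Ttc39b in Sensitized vs Naive and Sema4a in S+P C5 vs Sensitized. Gm43698 still passed in S+P C5 vs C4 without those 3 samples, in a test on samples that also stood in the comparisons that chose it.

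Group levels of the 8 genes were checked under 1 other setting, library totals without the gene of the highest total count. There 53 stayed within 1 SD and 3 moved. By DESeq2, log2 differences of Sensitized from Naive cells went from 11.6 to 24.8 (Prr5l), 9.49 to 22.8 (Hyal2) and 13.5 to 12.7 (Ttc39c). Those of N+P C5 from Naive went from 12.2 to 25.4 (Prr5l) and 10.9 to 24.2 (Hyal2). Small log2 differences between gates turned sign. Hyal2 in N+P C5 vs C1 (0.11) became -0.20 with the replicate block and -0.23 to 0.58 when 1 sample was left out. In S+P C5 vs C4, without the 3 samples under 9000 detected genes, Hyal2 (0.46) became -0.12, Endod1 (0.31) -0.28, Emb (-0.54) 0.13 and Ttc39c (-0.32) 0.093. Ttc39c there was 0.20 with the replicate block. Leaving out 1 sample gave -0.22 to 3.52 for Hyal2, -0.85 to 0.023 for Emb and -0.53 to 0.37 for Ttc39c. Ttc39c in S+P C7 vs C5 (-0.03) was 0.14 with all columns kept, 0.28 without the 3 samples and -0.30 to 0.30 with 1 sample left out. The causes were not tested. The replicate block put Cd44 and Nrp1 past the threshold between the N+P gates and changed no call of the 8 genes that could be fitted.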
